A study of Mus musculus with 13 samples.

Results

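The genes *Lyve1*, *Mrc1*, *Cd163*, *Stab1*, *Folr2*, *Cbr2*, *Pf4*, *F13a1* and *Siglec1* are scavenger and identity genes of border macrophages, the resident macrophages of the meninges and of the spaces around brain vessels. They were taken as a list by name. Each was read from its 1 probe set that carries no other gene's symbol, which gave 9 of the 19938 genes measured. The arrays hold RNA of cerebral meninges from newborn mice of 1 litter (strain C57BL6 in the labels, C57BL/6J in the methods), with 1 mouse on each Affymetrix Mouse Gene 1.0 ST array. The 4 mutants were *Pdgfc-/-; Pdgfra GFP/+*, that is, they had no functional copy of the gene for the growth factor PDGF-C and 1 copy of the gene of its receptor PDGFRα replaced by a GFP reporter. The 9 controls were all the other pups of the litter. Some had both copies of the receptor gene and were *Pdgfc+/+*, *Pdgfc+/-* or *Pdgfc-/-*, others carried the reporter allele *Pdgfra GFP/+* together with *Pdgfc+/+* or *Pdgfc+/-*, and the labels do not say which control had which. Both alleles were constitutive and were present in every cell of the mouse, so no cell type was targeted, and a control could itself lack *Pdgfc* or carry the reporter.

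Border macrophages sit in the connective tissue layers around the brain, where they take up proteins, lipids, hyaluronan and cell debris from the cerebrospinal fluid and the vessel wall. They depend on signalling through the receptor CSF1R, and differ from microglia, the macrophages of the brain itself, in their high content of scavenger receptors and lectins. Several of the 9 genes are also used by other cells: lymphatic and some other endothelial cells make LYVE1 and stabilin-1, and megakaryocytes and platelets carry platelet factor 4 and factor XIII A.

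Since 8 of the 9 genes moved together between the groups of mice, their promoters are shown first. The RefSeq table of promoters (GRCm38.p6; 250 bases before to 50 after each annotated start) held 7 of the 9 genes, with 9 promoters, and *Lyve1* and *Siglec1* were not among them. Of the 5 printed, 3 hold the letters GAGGAA, the core bound by the macrophage factor PU.1. The promoter of *Cd163*, which did not pass the test between the groups, does not hold it, and neither does that of *Folr2*, which had one of the larger falls. Capitals mark GAGGAA, or TTCCTC where the match lies on the other strand. All are written 5′ to 3′ on the gene's own strand.
Mrc1 (chr2:14229164-14229463, plus strand): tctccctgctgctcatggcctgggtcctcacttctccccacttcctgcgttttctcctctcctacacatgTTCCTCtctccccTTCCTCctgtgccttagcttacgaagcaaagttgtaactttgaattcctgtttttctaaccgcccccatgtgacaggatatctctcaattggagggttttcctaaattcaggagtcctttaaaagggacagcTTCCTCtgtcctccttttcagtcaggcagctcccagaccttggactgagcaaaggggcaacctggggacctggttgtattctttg
Cbr2 (chr11:120731972-120732271, minus strand): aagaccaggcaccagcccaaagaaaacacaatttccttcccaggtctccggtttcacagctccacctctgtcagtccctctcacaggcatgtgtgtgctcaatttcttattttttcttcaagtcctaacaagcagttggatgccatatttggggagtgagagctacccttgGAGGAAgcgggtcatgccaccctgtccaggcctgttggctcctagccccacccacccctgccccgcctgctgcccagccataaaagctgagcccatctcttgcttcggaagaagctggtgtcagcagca
Pf4 (chr5:90772185-90772484, plus strand): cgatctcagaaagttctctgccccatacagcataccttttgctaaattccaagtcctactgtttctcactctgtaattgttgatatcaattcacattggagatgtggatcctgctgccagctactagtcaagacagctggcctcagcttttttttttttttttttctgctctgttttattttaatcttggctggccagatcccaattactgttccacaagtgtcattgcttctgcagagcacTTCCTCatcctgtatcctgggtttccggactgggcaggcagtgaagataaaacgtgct
Cd163 (chr6:124304401-124304700, plus strand): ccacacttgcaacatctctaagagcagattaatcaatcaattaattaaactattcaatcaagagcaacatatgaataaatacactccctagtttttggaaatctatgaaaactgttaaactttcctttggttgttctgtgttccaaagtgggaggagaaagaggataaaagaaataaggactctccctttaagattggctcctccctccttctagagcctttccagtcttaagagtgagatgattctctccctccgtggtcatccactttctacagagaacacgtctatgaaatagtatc
Folr2 (chr7:101857141-101857440, minus strand, the first of 2): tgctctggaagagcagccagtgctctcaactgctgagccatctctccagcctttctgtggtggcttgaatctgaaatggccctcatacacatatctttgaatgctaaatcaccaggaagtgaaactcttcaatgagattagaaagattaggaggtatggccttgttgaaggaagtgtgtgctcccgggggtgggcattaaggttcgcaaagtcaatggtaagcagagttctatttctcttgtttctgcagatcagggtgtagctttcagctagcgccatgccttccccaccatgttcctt

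The core GAGGAA, searched on both strands, was found in 5 of the 7 genes, namely *Mrc1*, *Stab1*, *Cbr2*, *Pf4* and *F13a1*, but in neither promoter of *Folr2*. By promoter it was in 6 of the 9, and in 28.3% of all 32851 promoters of the same length. In *Mrc1* it occurred 3 times, at positions -180 to -175, -167 to -162 and -35 to -30, where position 0 is the first transcribed base. In *Cbr2* it lay at -79 to -74 and in *Pf4* at -8 to -3. The composite of PU.1 and an interferon regulatory factor is GGAANNGAA, which can overlap GAGGAA but did not in these genes. It was in *Stab1* and *Folr2*, that is in 2 of the 9 promoters, and in 8.24% of all promoters. A core of the MAF recognition element, TGCTGA, was in *Stab1*, *Folr2* and *Cbr2*, that is in 4 of the 9 promoters, and in 19.5% of all promoters. Neither the E-box CACGTG (7.15% of all promoters) nor the TATA box TATAAA (13.6%) was in any of the 9 promoters. These matches describe letters in a window and no binding was measured.

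Values are PLIER intensities, the brightness of a probe set on a linear scale, and differences are means of log2(intensity + 16) in mutants minus controls from limma, with p-values adjusted over all 19938 genes by the Benjamini-Hochberg method and a call at an adjusted p under 0.05. The constant makes the fold of a dim gene smaller than the ratio of its intensities. Median intensity per array was 56.0 to 89.7 in mutants and 44.1 to 89.0 in controls. The targeted gene *Pdgfc* was at 22.8 to 29.3 in the mutants and at 103 to 275 in 8 controls, while control 2 was at 5.88. Control 2 thus lay with the mutants in *Pdgfc*, and its own genotype is not in the labels. *Pdgfra* read 1078 ± 352 in the mutants (SD, n = 4), and in the controls 1764 ± 429 (SD, n = 9). *Xist*, the RNA of the inactive X chromosome, was at 2.24 to 4.77 in all 4 mutants, at 4.78 to 8.73 in controls 1, 5 and 8, and at 536 to 1020 in the other 6 controls, so that sex was not balanced between the groups. That the tissue holds macrophages was checked by *Csf1r*, which read 602 to 865 in the controls and 289 to 489.6 in the mutants.

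Of the 9 border macrophage genes, 8 fell in the mutants, 0 rose, and *Cd163* did not pass the test. Among all genes tested 6.31% fell and 8.58% rose. The median log2 difference of the 9 genes was -1.60, a fold near 3, beside 0.0043 for all genes. In 7 of them every mutant was below every control, which was true of 3.04% of all genes; in *Cd163* and *Siglec1* the groups overlapped. *Lyve1*, *Cbr2* and *Folr2* ranked 5, 8 and 13 among the 19938 genes ordered from the largest fall. In RNA of a whole tissue, fewer macrophages and less of these RNAs in each macrophage cannot be told apart.

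Among the scavenger receptors, *Lyve1*, the receptor for the matrix sugar hyaluronan, was at intensities of 268, 232, 226 and 645 in mutants 1 to 4. In the controls it was lowest at 1353, with a median of 1867 and a highest value of 1983. The mutants were thus all far below the controls, and mutant 4 stood above the other 3. The log2 difference was -2.45 (SE 0.21, 95% interval -2.88 to -2.02), 5.46-fold lower, with an adjusted p of 3.01e-08.

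*Mrc1*, the mannose receptor, which takes up glycoproteins and collagen fragments, had intensities of 350.3, 452, 369.7 and 839 in the mutants. Its controls ran from 1065 over a median of 1386 to 1612. Again no mutant reached the lowest control. It fell by 1.49 on the log2 scale (SE 0.18, adjusted p = 5.16e-06), 2.80-fold.

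*Stab1* encodes stabilin-1, an endocytic receptor for modified lipoproteins and matrix fragments. Its intensity was 172, 208, 172 and 346 in the mutants, against 451 at the lowest, 616 at the median and 710.2 at the highest control. The groups did not overlap, and mutant 4 was again the nearest to the controls. The log2 difference was -1.37 (SE 0.17, adjusted p = 3.81e-06), 2.59-fold lower.

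*Cd163*, the receptor that clears haemoglobin bound to haptoglobin, differed from the rest. Mutants 1 to 3 read 182, 190.3 and 202, below every control, and mutant 4 read 599, above every control. The controls had a lowest value of 244, a median of 427 and a highest value of 515. The difference of -0.63 (SE 0.25, 95% interval -1.16 to -0.11) did not pass the test, with an adjusted p of 0.110, and exchanging the group labels in all 715 possible ways (a two-sided exact permutation test) gave p = 0.0643. Without mutant 4 the difference was -1.03 with an adjusted p of 9.75e-04, so that the call turned on this mouse. It also turned on the scaling and on the arrays and genes kept. With mutant 4 kept, *Cd163* was called with quantile normalization (-0.69, adjusted p = 0.0389) and with array median centring (-0.73, adjusted p = 0.0185). It was called as well without the 4 dimmest arrays (-0.67, adjusted p = 0.0468), and without the dimmest 50% of all genes, where all 8 genes still tested fell.

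*Siglec1*, or sialoadhesin, binds sialic acid on cells and vesicles and was among the dimmer of the 9 probe sets, brighter than 54.2% of all probe sets on the array. Its intensity was 59.7, 51.0, 44.5 and 74.7 in the mutants and 62.5, 109 and 134 at the lowest, median and highest control. The groups overlapped at control 1 alone: 8 of the 9 controls were above all mutants. It fell by 0.67 on the log2 scale (SE 0.17, adjusted p = 0.00762), 1.59-fold.

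Of the genes used to tell border macrophages from other macrophages, *Folr2*, the folate receptor beta, was at 37.8, 25.7, 22.3 and 48.7 in the mutants. The controls ranged from 131 to 249 with a median of 208. The lowest control was well over the highest mutant. The difference of -2.11 (SE 0.17, adjusted p = 1.82e-08) is a 4.33-fold fall on the scale with the constant, while the ratio of the mean intensities was 5.88. In each mutant *Folr2* was below the median intensity of its array and no detection call was used here, so that its signal there is not shown to be above background and both values may understate the fall.

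*Cbr2*, a carbonyl reductase that metabolises ketones and aldehydes, had intensities of 32.2, 46.9, 38.5 and 88.1 in the mutants. In the controls its lowest, median and highest values were 239.6, 317 and 406. No mutant came near the controls. It fell by 2.37 on the log2 scale (SE 0.18, adjusted p = 9.44e-09), 5.16-fold, and its ratio of mean intensities was 6.24, the highest of the 9 genes. In mutants 1 to 3 *Cbr2* was below the median intensity of its array, so the limit given for *Folr2* applies to both values.

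*Pf4* encodes the chemokine platelet factor 4. It was at 444, 485, 429.9 and 637 in the mutants, and at 1235, 1517 and 1787 at the lowest, median and highest control. The mutants lay closer together than in the other 8 genes, with a coefficient of variation of 19.0%, and well below the controls. The log2 difference was -1.60 (SE 0.13, adjusted p = 2.27e-08), 3.03-fold lower, and its SE was the smallest of the 9.

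*F13a1* encodes the A chain of factor XIII, the enzyme that crosslinks fibrin. Its mutants were at 504, 599.6, 496 and 1052, its controls at 1538, 2129 and 2265 for the lowest, median and highest. No mutant reached a control, and mutant 4 stood apart from the other 3. It fell by 1.62 on the log2 scale (SE 0.17, adjusted p = 7.25e-07), 3.08-fold.

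**Figure D1:**
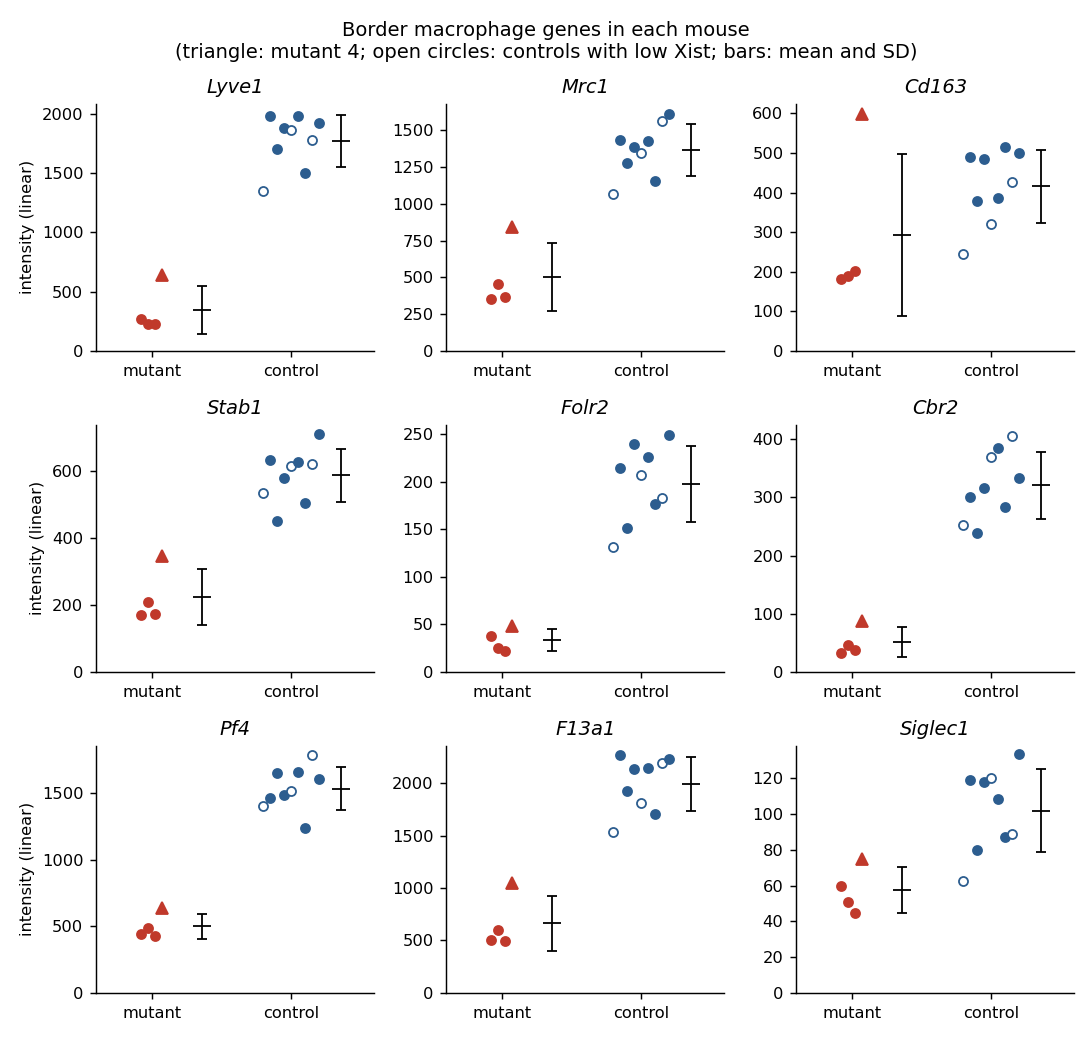
Intensity (linear, 1 panel and y axis per gene, from 0) of the 9 border macrophage genes in each mouse, mutants in red and controls in blue, with the mean and SD of each group as bars. In 7 panels all mutants lie below all controls; mutant 4 (triangle) is the highest mutant in each panel and in *Cd163* the highest of all mice, and the 3 controls of low *Xist* (open circles) lie among the other controls or at the edges of their range.

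For single genes the exact permutation test cannot give a p under 0.0014 with 4 and 9 mice, and the 7 genes without overlap were at that smallest value. *Siglec1* had an exact permutation p of 0.0042. Control 2, which was low in *Pdgfc* like the mutants, was not like them in these genes. It was inside the range of the other controls in 7 genes and above them in *Lyve1* (1983) and *F13a1* (2265).

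The genes did not fall to the same degree. In order of the log2 difference came *Lyve1* (-2.45), *Cbr2* (-2.37) and *Folr2* (-2.11), then *F13a1* (-1.62), *Pf4* (-1.60), *Mrc1* (-1.49) and *Stab1* (-1.37), then *Siglec1* (-0.67) and *Cd163* (-0.63). The order of the first 3 depends on the added constant: with 1 in place of 16 it was *Cbr2* (-2.70), *Folr2* (-2.56) and *Lyve1* (-2.51), and the ratios of mean intensities were 6.24, 5.88 and 5.18. The log ratio of each pair was compared between groups by the two-sided exact permutation test, which gave a p under 0.05 in 29 of 36 pairs before any adjustment. Of the 8 pairs of neighbours in the order, 6 were not separated by this test, *Lyve1* and *Cbr2* differing by -0.08 (exact p = 0.589), *Cbr2* and *Folr2* by -0.25 (exact p = 0.176), *F13a1* and *Pf4* by -0.02 (exact p = 0.836), *Pf4* and *Mrc1* by -0.11 (exact p = 0.393), *Mrc1* and *Stab1* by -0.12 (exact p = 0.168), and *Siglec1* and *Cd163* by -0.04 (exact p = 0.874). The other neighbours did differ, *Folr2* and *F13a1* by -0.49 (exact permutation p = 0.0070) and *Stab1* and *Siglec1* by -0.70 (exact permutation p = 0.0014). Genes farther apart within the same stretch of the order also differed, *Lyve1* and *Folr2* by -0.34 (exact permutation p = 0.0490), *Mrc1* and *F13a1* by 0.14 (exact permutation p = 0.0140) and *Stab1* and *F13a1* by 0.25 (exact permutation p = 0.0182), so the order has no clean steps.

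Of the 4 scavenger receptors, *Lyve1* fell the most: its log2 difference minus that of *Mrc1* was -0.96, and minus that of *Cd163* -1.81, both at the smallest exact permutation p of 0.0014. In log2 units *Lyve1* stood 1.51 to 2.48 above *Cd163* in the 9 controls and only 0.10 to 0.52 above it in the 4 mutants. These are ratios of the same 2 probe sets in each mouse, and the ranges do not touch.

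Some pairs kept a tight ratio within each group while both genes moved. *Folr2* minus *Siglec1* was 0.72 to 0.95 in the controls (SD 0.083, n = 9) and -0.68 to -0.49 in the mutants (SD 0.11, n = 4), a shift of -1.44 with an exact permutation p of 0.0014. In each mutant both genes were below the median intensity of the array. Their tight ratio there may thus reflect background and the added constant, and the size of the shift is uncertain. Over the controls both genes tended to follow the array median (rho = 0.62 for *Folr2* and 0.77 for *Siglec1*). *Mrc1* minus *F13a1* was -0.66 to -0.43 in controls and -0.50 to -0.32 in mutants (SD 0.075 in both groups). These ranges overlap, and the shift was smaller, 0.14 with an exact permutation p of 0.0140. *Cd163* minus *Mrc1* was -2.05 to -1.14 in controls and -1.18 to -0.47 in mutants, and spread over the most of these 3 pairs.

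**Figure D2:**
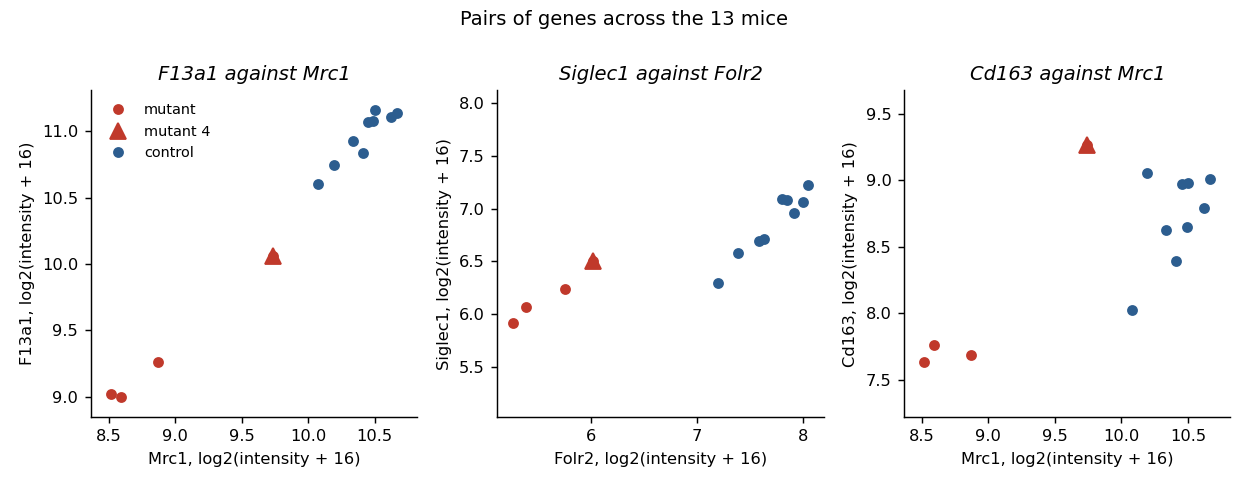
Pairs of genes in the 13 mice, each axis log2(intensity + 16), mutants in red with mutant 4 as a triangle and controls in blue. *F13a1* against *Mrc1* runs near 1 line through both groups, *Siglec1* against *Folr2* forms separate lines for mutants and controls, and in *Cd163* against *Mrc1* mutant 4 lies above all controls on the *Cd163* axis while it is below them on the *Mrc1* axis.

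Mutant 4 was the highest mutant in all 9 genes. On the log2 scale it exceeded the mean of mutants 1 to 3 by 1.57 in *Cd163*, 1.36 in *Lyve1*, 1.08 in *Mrc1* and 0.96 in *F13a1*, but by only 0.48 in *Pf4* and 0.43 in *Siglec1*. As a share of the gap between mutants 1 to 3 and the controls this was 24.5% in *Folr2*, 27.9% in *Pf4*, 35.6% in *Cbr2*, 48.8% in *Lyve1*, 51.7% in *F13a1*, 54.4% in *Stab1*, 54.7% in *Siglec1*, 61.4% in *Mrc1* and 153% in *Cd163*. *Csf1r* stood at 52.4%, inside the range of the 9 genes. Other genes of the same mouse were also higher than the mean of mutants 1 to 3. The mean log2 level of the pan-macrophage list was 8.44 beside 8.07, of meningeal fibroblast genes 11.20 beside 10.76, and of neuronal genes 9.73 beside 9.63, while that of the 9 genes was 8.39 beside 7.48. In the neuronal list mutant 2, at 9.76, was above mutant 4. The part of these differences in the values of mutant 4 was not tested.

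The RNA of the mutants also held more neuronal message. All 14 pan-neuronal genes listed rose, with a median log2 difference of 3.10, and the mean log2 level of the list was 9.50 to 9.76 in mutants and 6.30 to 7.65 in controls. Fibroblast genes of the meninges were at 10.60 to 11.20 in mutants and 11.12 to 11.55 in controls, and pan-macrophage genes at 7.93 to 8.44 and 8.34 to 8.88. The part of the neuronal RNA in the fall of the 9 genes was not tested. With each array centred on its 22 pan-macrophage genes, which moved the median of all genes to 0.50, 7 of the 9 genes still fell, beside 1.87% of all genes. *Lyve1* was then lower by a log2 difference of -1.95, *Cbr2* by -1.87, *Folr2* by -1.61, *F13a1* by -1.13, *Pf4* by -1.10, *Mrc1* by -0.99 and *Stab1* by -0.87. In these 7 genes the mutants were thus lower relative to genes that tissue macrophages and microglia share. The part of microglia in the level of those shared genes was not tested, so this is not a fall relative to meningeal macrophages alone. Other border macrophage genes were divided on that scale. Of 24 measured, 8 fell and 8 rose, with a median of 0.11, while 14657 of all 19938 genes rose. The 22 shared genes also diverged: 8 fell and 5 rose, from -0.89 in *Lyz2* to 1.48 in *Mpeg1*. *Siglec1* (-0.17, adjusted p = 0.227) and *Cd163* (-0.14, adjusted p = 0.588) did not pass the test on that scale. Centring on the 16 fibroblast genes, which moved the median of all genes to 0.51, gave 7 calls as well, and *Siglec1* (-0.16, adjusted p = 0.344) and *Cd163* (-0.13, adjusted p = 0.633) were not called.

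**Figure D3:**
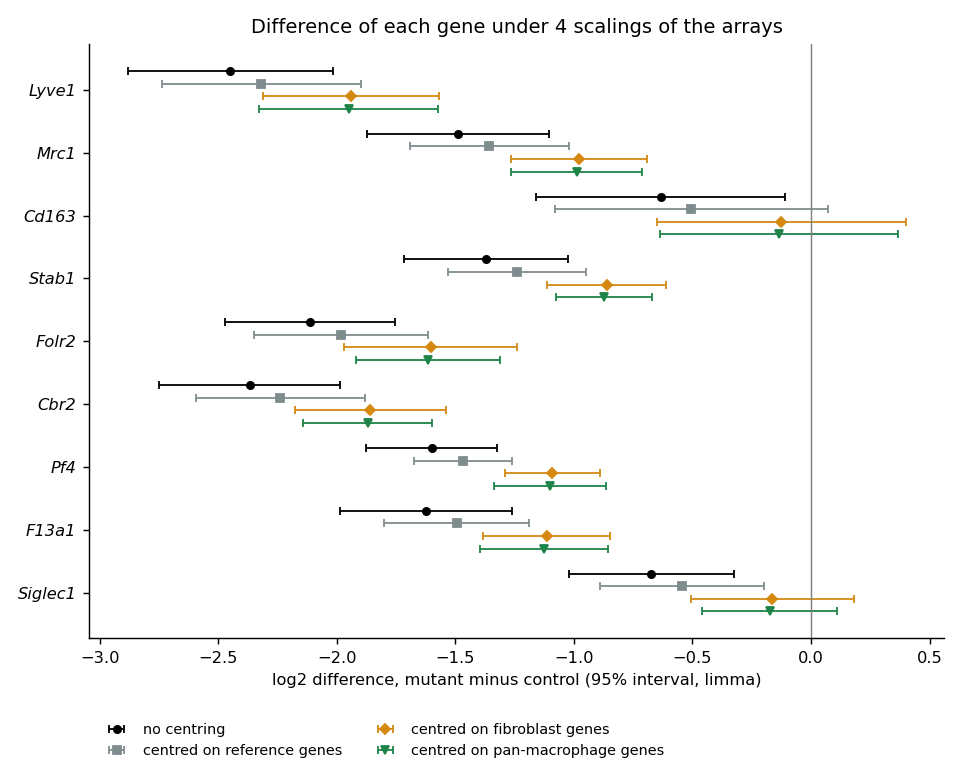
Log2 difference of each gene, mutants minus controls, with its 95% interval from limma (bars), without centring and with each array centred on 11 reference genes, 16 fibroblast genes or 22 pan-macrophage genes. *Lyve1*, *Cbr2* and *Folr2* stay lowest in each, and the intervals of *Cd163* and *Siglec1* reach 0 with fibroblast or pan-macrophage centring.

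Since all 4 mutants were low in *Xist*, they were also set against the 3 controls of low *Xist* alone. Here 7 of the 9 genes fell, beside 3.23% of all genes, with *Lyve1* at -2.36, *Cbr2* at -2.45, *Folr2* at -1.95, *Pf4* at -1.63, *F13a1* at -1.51, *Mrc1* at -1.44 and *Stab1* at -1.39. The call of *Siglec1* was lost (-0.51, adjusted p = 0.170), and *Cd163* was at -0.32 (adjusted p = 0.755). For the 7 called genes the fall between mice of low *Xist* was close to that over all mice.

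Among the controls, the 9 genes varied with an SD of 0.16 (*Pf4*) to 0.34 (*Cd163*) on the log2 scale. Control 1 was the lowest control in 6 of the 9 genes and control 9 the highest in 4. To ask whether the genes rise and fall together from mouse to mouse, each was correlated with the mean of the other 8 over the 9 controls, first with each array centred on its median. With 9 such relations the p-values below are exact permutation values without adjustment, since the genes were chosen with earlier results known. *F13a1* followed the others closely (r = 0.92, exact p = 2.29e-04; rho = 0.97, exact p = 1.65e-04), as did *Mrc1* (r = 0.93, exact p = 3.06e-04; rho = 0.82, exact p = 0.0108) and *Lyve1* (r = 0.93, exact p = 0.0033; rho = 0.73, exact p = 0.0311). Without the 2 mice farthest from the median, controls 6 and 3, r was 0.74 for *F13a1*, 0.73 for *Mrc1* and 0.34 for *Lyve1*, so that the relation of *Lyve1* rested on those mice.

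For *Stab1* (r = 0.74, exact permutation p = 0.0659; rho = 0.25, p = 0.521), *Folr2* (r = 0.77, p = 0.0591; rho = 0.25, p = 0.521), *Cbr2* (r = 0.71, p = 0.0597; rho = 0.15, p = 0.708) and *Siglec1* (r = 0.65, p = 0.0843; rho = 0.27, p = 0.493) no exact p was under 0.05. Without controls 6 and 3 their r was -0.03, -0.08, -0.04 and -0.26. *Cd163* followed the others least (r = 0.40, exact p = 0.311; rho = 0.23, exact p = 0.552; r = 0.11 without controls 6 and 3). *Pf4* had an r of 0.69 (exact p = 0.0218; rho = 0.47, exact p = 0.213), and 0.75 without controls 6 and 1. The array medians of controls 6, 3 and 1 were the lowest of the controls, at 44.1, 51.8 and 52.9.

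Without centring, *Mrc1* (r = 0.92, exact p = 5.51e-04; rho = 0.87), *Lyve1* (r = 0.90, exact p = 0.0022; rho = 0.87) and *F13a1* (r = 0.88, exact p = 0.0035; rho = 0.83) were again high and kept an r of 0.90, 0.82 and 0.86 without controls 1 and 3. *Folr2* (r = 0.90, exact p = 0.0012; rho = 0.77), *Siglec1* (r = 0.86, exact p = 0.0037; rho = 0.68) and *Stab1* (r = 0.73, exact p = 0.0231; rho = 0.82) also followed the others, with an r of 0.69, 0.55 and 0.90 without the same mice. *Cbr2* (r = 0.65, exact p = 0.0572; rho = 0.47), *Cd163* (r = 0.52, exact p = 0.151; rho = 0.37) and *Pf4* (r = 0.39, exact p = 0.300; rho = 0.22) did not reach a p under 0.05. Uncentred values also carry the brightness of the array: the median r of other genes with the same means was 0.47 to 0.50, beside 0.22 to 0.28 after centring. *Lyve1*, *Mrc1* and *F13a1* exceeded 99.1%, 99.4% and 98.3% of the other genes in the first case and 99.7%, 99.5% and 99.2% in the second. Centring has its own limit, since it subtracts 1 shared term from all genes. Over the controls the log2 array median, without the constant, had an SD of 0.36, beside 0.16 to 0.34 for the 9 genes. Centring can thus itself add correlation, and the exact p-values do not allow for that. *Pf4*, which did not follow the array median (r = -0.06), had an r of 0.39 uncentred and 0.69 centred.

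With each array centred on its pan-macrophage genes, r was 0.87 for *Lyve1* (exact p = 0.0026), 0.83 for *Mrc1* (exact p = 0.0090), 0.82 for *F13a1* (exact p = 0.0068) and 0.76 for *Folr2* (exact p = 0.0198). It was 0.66 for *Siglec1*, 0.50 for *Cd163*, 0.30 for *Pf4*, 0.27 for *Cbr2* and 0.25 for *Stab1*, all with an exact permutation p over 0.05. The 36 pairs of genes had a median r of 0.65 after array median centring, 0.64 without centring and 0.47 after pan-macrophage centring. With all 9 controls, *Lyve1*, *Mrc1* and *F13a1* most nearly moved with the rest under each of the 3 scalings, apart from *Folr2*, which without centring lay between them. This order did not hold without the 2 farthest mice. After array median centring *Pf4* was then highest (0.75) and *Lyve1* was at 0.34. After pan-macrophage centring *Folr2* was highest (0.80), before *Lyve1* (0.70), *F13a1* (0.60), *Pf4* (0.60), *Stab1* (0.58) and *Mrc1* (0.51).

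**Figure D4:**
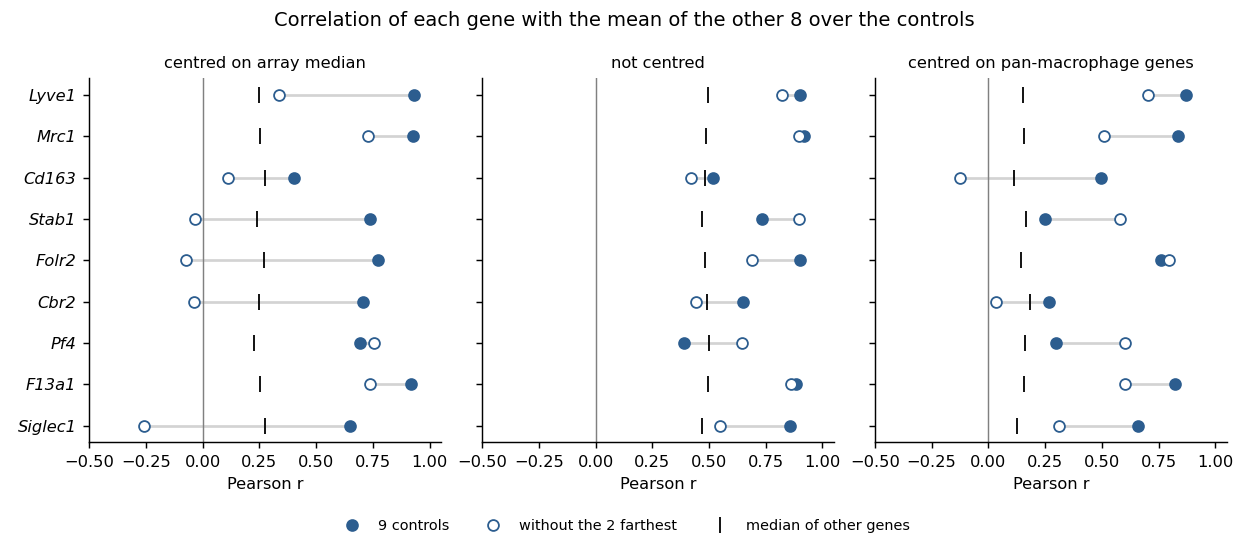
Pearson r (x axis) of each gene with the mean of the other 8 over the controls under 3 scalings, for all 9 controls (filled) and without the 2 mice farthest from the median (open), with the median r of all other genes with the same mean as a tick. *Mrc1* and *F13a1* stay at an r of 0.51 or more in all 6 cases, while the open circles of *Stab1*, *Folr2*, *Cbr2* and *Siglec1* fall below 0 after array median centring.

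Over the 9 controls, with arrays centred on their median, the 10 genes closest to the mean of the border macrophage genes were *Bdp1* (r = 0.98), *Xpo1*, *Adal*, *Pde12*, *Glra3*, *Ptar1*, *Supt16*, *Tlk2*, *Nr2c1* and *Tarsl2* (r = 0.97). *Csf1r* ranked 1612 by the same measure, with an r of 0.82, behind the platelet gene *Ppbp* at 850 (r = 0.86). *Ppbp* also ranked ahead of *Csf1r* by r without centring (1243 and 1408) and after pan-macrophage centring (1743 and 2929). By rho *Csf1r* was ahead of *Ppbp* after array median centring (0.72 and 0.55) and pan-macrophage centring (0.53 and 0.47), but not without centring (0.82 and 0.83). After pan-macrophage centring the microglia genes *Cx3cr1* (r = -0.61) and *P2ry12* (r = -0.66) ran against the 9. Their r was 0.45 and 0.29 after array median centring, and 0.33 and 0.43 without centring. Pan-macrophage centring subtracts genes that microglia share and can itself lower these r values. None of the 10 is in a macrophage list used here.

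Other border macrophage genes were divided. Of 24 measured, 11 fell, 1 rose and 12 did not pass the test, with a median log2 difference of -0.39. Several of the 12 were dim also in the controls, such as *Vsig4* (0.45 to 11.7) and *Ccl8* (11.1 to 28.5), so that a fall may not show. Others were bright and not called either, such as *Ms4a4a* (920 to 1408 in controls). Without the dimmest 25% of all genes, 10 of 17 fell and 1 rose, with a median of -0.66. *Cd209f*, a C-type lectin, fell by 2.14 (adjusted p = 6.91e-07), from 27.0 to 109 in controls to 0.46 to 4.46 in mutants. *Fcna*, which encodes the soluble lectin ficolin A, fell by 1.87 (adjusted p = 6.72e-07), and *Dab2*, an adaptor of receptor endocytosis, by 1.26 (adjusted p = 3.78e-07). *Hmox1*, the enzyme that breaks down haem, was the gene that rose. It was at 1248, 811, 1599 and 1384 in mutants 1 to 4 and at 254 to 447 in the controls, 3.55-fold higher (adjusted p = 1.77e-07). *Cd163* and *Hmox1*, which act on haemoglobin and on its haem, thus had different patterns, since *Hmox1* was above every control in each mutant.

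Of 19 scavenger receptor genes outside the list, 4 fell and 0 rose, with a median of -0.07. Those 4 were *Colec12* (-0.94), a collectin of endothelial and stromal cells, *Cxcl16* (-0.79), a chemokine that is also a receptor for oxidised lipoprotein, the lysosomal protein gene *Cd68* (-0.65), and *Scarf1* (-0.59), an endothelial scavenger receptor.

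Of 22 pan-macrophage genes, shared by tissue macrophages and microglia, 16 fell and 1 rose. Their median was -0.56 beside -1.60 for the 9, a difference between lists that was not tested. Lysozyme (*Lyz2*) fell by 1.39, a little more than *Stab1*, *Csf1r* by 1.00 and the Fc receptor gene *Fcgr1* by 0.88, while *Mpeg1*, a pore-forming protein of phagocytes, rose by 0.98 (adjusted p = 1.47e-04). The microglia list had 7 of 12 genes that fell, among them *P2ry13* (-1.13), *Cx3cr1* (-0.96), *Gpr34* (-0.95) and *Fcrls* (-0.94), and 1 that rose, *Tmem119* (0.46, adjusted p = 0.0147), which is named here after its value was seen. Of 11 monocyte and neutrophil genes 4 fell, *Plac8* (-1.65), *S100a8* (-0.76), *S100a9* (-0.72) and *Ccr2* (-0.44). Of 6 MHC class II genes 0 passed the limma test in either direction, and 2 were lower at an unadjusted p under 0.05, but 4 fell with quantile normalization, array median centring or array weights. Among 10 growth factor and receptor genes of macrophages 4 fell, *Csf1r*, *Tgfb1* (-0.58), *Csf1* (-0.54) and *Kitl* (-0.54).

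Cells that share some of the 9 genes were read in the same way. Of 9 megakaryocyte and platelet genes 0 were called by limma, with a median of 0.08 and 1 lower at an unadjusted p under 0.05. Their summed intensity was 712 to 1251 in mutants and 564 to 1085 in controls, while *Pf4* and *F13a1* fell about 3-fold. Over the alternatives 0 or 1 of the 9 fell, and up to 6 rose where centring moved the median of all genes to 0.50. Several of these platelet genes were dim, so that a fall in them may not show. *Ppbp*, *Gp5*, *Gp9* and *Itga2b* had control means of 41.2, 40.2, 54.5 and 49.3, while *Tubb1* (246) and *Treml1* (197) were brighter. The summed intensity was lowest in control 6 and highest in mutant 1, the arrays of lowest (44.1) and highest (89.7) median. Of 7 lymphatic endothelial genes, which share *Lyve1*, 4 fell and 1 rose: *Mmrn1* fell by 2.43 (adjusted p = 1.20e-06), from 188 to 639 in controls to 28.1 to 58.9 in mutants, *Itga9* fell by 0.68 and *Flt4* by 0.59, and *Prox1* rose by 0.63. The summed intensity of the lymphatic list was 2064 to 2765 in mutants and 2671 to 3777 in controls. Its largest parts were *Foxc2* and *Pdpn*, with control means of 1187 and 1161, so the sum says little about the dimmer genes. *Prox1* was dim, at 24.3 to 48.2 in controls and 51.1 to 84.3 in mutants. Of 13 endothelial genes 8 fell, with a median of -0.79, among them *Kdr* (-0.93), *Tek* (-0.89), *Tie1* (-0.88) and *Cldn5* (-0.83). None of the 13 was called with *Xist* as a covariate or with fibroblast centring, and 2 fell with pan-macrophage centring, while 8 fell between mice of low *Xist*. The part of lymphatic or other endothelial cells in the fall of *Lyve1* and *Stab1* was not tested.

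Of 8 erythroid genes 0 were called by limma and 0 differed at an unadjusted p under 0.05. Mast cell genes fell in 2 of 7 cases, *Cpa3* (-1.32) and *Cma1* (-0.80). Of 16 fibroblast genes 6 fell, 2 rose and 8 did neither. Among those that fell were *Slc22a6* (-1.96), *Ptgds* (-1.46), *Crabp2* (-1.25) and *Ccn3* (-0.92). The 2 that rose were the collagen genes *Col3a1* (0.53, adjusted p = 0.0117) and *Col1a1* (0.50, adjusted p = 0.0125), which are named here after their values were seen. The median of each list stood nearer to 0 than that of the 9 border macrophage genes, apart from the neuronal one. Dim genes, as in the other border macrophage, megakaryocyte and erythroid lists, can hold such a median near 0.

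**Figure D5:**
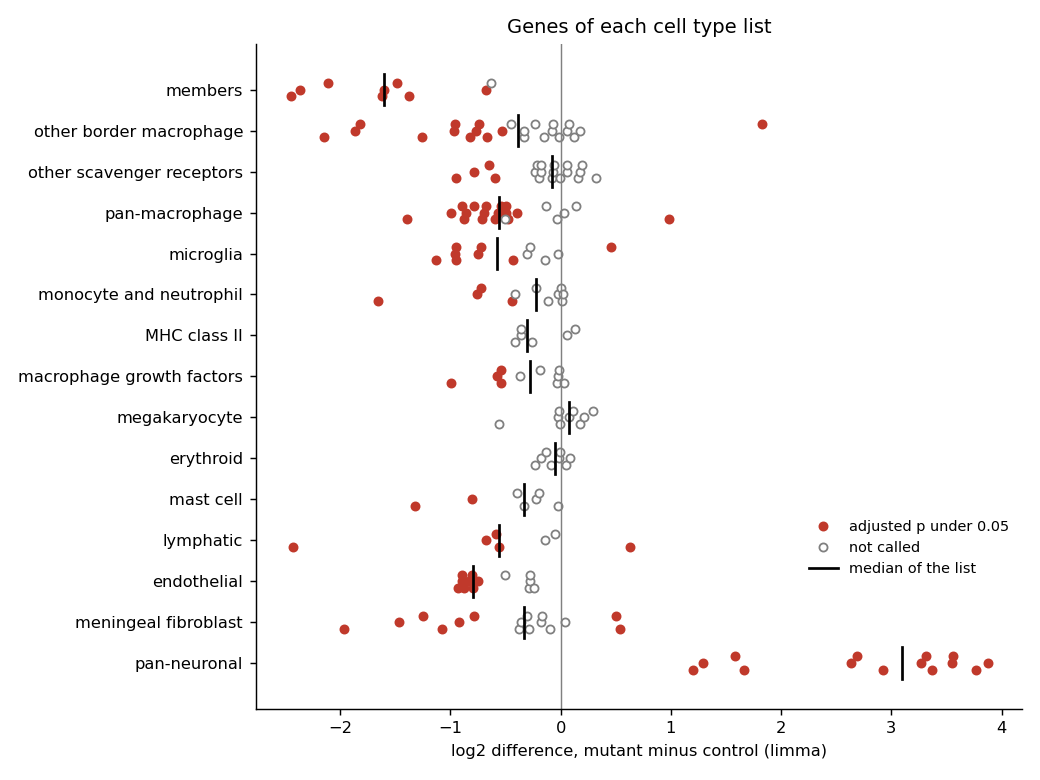
Log2 difference (x axis, mutants minus controls, limma) of each gene of 15 lists (rows), filled where the adjusted p was under 0.05, with the median of each list as a bar. The 9 border macrophage genes lie lowest with a median of -1.60, megakaryocyte and erythroid genes lie around 0, and neuronal genes lie far above it.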

How the data were processed

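RNA of cerebral meninges from 13 newborn mice of 1 litter was hybridised to Mouse Gene 1.0 ST arrays, 1 mouse per array. The authors deposited 1 intensity per probe set and array, made with the PLIER algorithm per the methods and the submitters' processing notes; version, background step and scaling between arrays are not given in the sources used here. The deposited intensity values are linear and were used as log2(intensity + 16). Of 35557 probe sets, 21789 carry 1 gene symbol, 1621 several and 12147 none in the platform table; 21698 matched the current annotation by Entrez ID and 0 symbols changed. The brightest probe set stood for each of the 999 genes with several, which gave 19938 genes.

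Differences were fitted with limma 3.58.1 in R 4.3.3 over all 13 mice and all genes, with Benjamini-Hochberg adjustment, after a test on simulated data. Single values and pairs were tested with exact permutations of the 715 splits, correlations with exact permutations of pairings, in Python 3.11.15 with numpy 2.4.6 and scipy 1.17.1. Read depth does not apply to arrays, and precision is limited by the number of mice. The labels call the mice biological replicates.

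The genes and the 15 further lists were chosen with earlier results of these data known. Named from each list were up to 4 genes of smallest adjusted p, and the 10 genes closest to the mean of the 9. List counts and medians stand as descriptions. Alternatives covered the variance model, array weights, scaling, the added constant, filters on dim genes, probe set choice, *Xist*, replicate numbers and leaving out each mouse.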

Additional observations from a re-analysis of the deposited data

Results flagged for a closer look

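The 4 mutants and the 9 controls were searched, for each of the 9 genes, for a lowest or highest mouse far from the others on the log2 scale (Dixon's gap over the range of the group). Of 18 groups looked at, 2 stood out, both through mutant 4. *Cd163* was at an intensity of 599.26 in this mouse, with a gap of 0.918 of the range of the 4 mutants, and *Lyve1* at 644.55, with a gap of 0.842. Chance gives about 1 such mouse in 20 groups. In *Lyve1* mutant 4 remained below every control, while in *Cd163* it was above every control. Leaving this mouse out made *Cd163* pass the test (-1.03, adjusted p = 9.75e-04) and moved *Lyve1* to a log2 difference of -2.79.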

How the results depend on the processing

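The fall of the border macrophage genes was recomputed under 32 alternatives, which gave 287 values for single genes, all below 0. Of these, 272 kept their side of the threshold, 10 lost it and 5 passed it newly. *Folr2*, *Cbr2* and *Pf4* were called under all 32, with adjusted p up to 0.0037, 0.0195 and 0.0063. The number of genes that fell was 3 with unequal variances in place of limma's shared variance (adjusted p of the other 6 from 0.0518 to 0.601). It was 9 with quantile normalization, array median centring or without the 4 dimmest arrays, and 8 to 9 when each mouse was left out in turn. It was 7 with *Xist* as a covariate, where *Siglec1* lost its call (-0.49, adjusted p = 0.225), 8 with equal variances, and 7 by the rule of the methods, an unadjusted p under 0.05 with a fold over 2. A fit with a replicate block over mutants and controls 1 to 4 gave 7 (*Siglec1* -0.57, adjusted p = 0.0936); correlations of the deviations of mice with the same number were -0.34, 0.16, 0.31 and -0.09, so equal numbers were not taken to mark pairs. The median correlation of the 9 genes with the mean of the others was 0.736 over the controls, 0.539 after quantile normalization, and 0.290 (without control 6) to 0.814 (without control 3) when each control was left out.

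Counts over all genes moved more. Against 1710 that rose and 1258 that fell, quantile normalization gave 2668 and 3617, array median centring 1808 and 2862, reference gene centring 3018 and 1044, fibroblast centring 13179 and 318, pan-macrophage centring 14657 and 372, unequal variances 1139 and 400, array weights 2033 and 2023, *Xist* as a covariate 1144 and 605, mice of low *Xist* 1190 and 644, the replicate block 1284 and 545, and leaving out mutant 1 or 3 gave 778 and 777 that fell. The cause was not tested. Of the lists, other border macrophage genes fell in 6 to 15 cases and rose in 1 to 8. Pan-macrophage genes fell in 2 to 17 and rose in 1 to 5, and microglia genes fell in 2 to 9 and rose in 0 to 3. Endothelial genes fell in 0 to 10 and rose in 0. Reference gene centring moved the median of all genes to 0.13 and array weights to -0.11. The litter gave 4 mutants, the genotype of each control is not in the labels, and sex differs between the groups, which limits how finely the 9 genes can be ranked. *Folr2*, *Cbr2* and *Siglec1* are dim in the mutants, so their folds depend on the added constant.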
